A study of Mus musculus with 9 samples.

Results

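Regulators of G protein signaling (RGS proteins) were followed at the transcript level in splenic regulatory T cells (Tregs) that had lost the endoplasmic reticulum chaperone gp96, encoded by Hsp90b1. The members were the 8 genes Rgs1, Rgs2, Rgs3, Rgs16, Rgs18, Rgs10, Rgs14 and Rgs19, taken by symbol from the 25500 entries of the gene expression table. KO Tregs came from Foxp3eGFP-Cre-ERT2 Hsp90b1 fl/fl C57BL/6 mice (5 libraries) and WT Tregs from Foxp3eGFP-Cre-ERT2 Hsp90b1 WT/WT mice (4 libraries). Both genotypes carried the tamoxifen-inducible Cre and the GFP reporter under Foxp3, and both received tamoxifen at 75 mg/kg over 10 days at 8 to 12 weeks of age, which directs the deletion to Foxp3-expressing cells of adult animals. About 1000000 GFP+ cells were sorted per sample and their RNA was sequenced in bulk.

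G protein-coupled receptors act by loading the alpha subunit of a heterotrimeric G protein with GTP, which releases the beta-gamma dimer, and both parts then drive effectors. An RGS protein binds the active alpha subunit, speeds the hydrolysis of its GTP and so shortens the signal. In lymphocytes the best known of these signals runs through Gi from chemokine and sphingosine 1-phosphate receptors and directs migration. Rgs1, Rgs2, Rgs3, Rgs16 and Rgs18 belong to the subfamily of small proteins named R4, Rgs10 and Rgs14 to the R12 subfamily, and Rgs19, also called GAIP, to the RZ subfamily.

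Levels are FPKM, the fragments of a gene divided by its exon length and by the size of the library, so that levels of different genes can be set side by side. Means are given ± SD over KO 2 to KO 5 and over WT 1 to WT 4. These are the libraries whose normalized values the study's supplement holds, 4 per genotype like the number of mice it states. KO 1 is given beside them. Folds are log2 fold changes of FPKM + 1, KO over WT, with limma's standard error (SE) and a p-value adjusted over all 12237 genes tested, and a gene passed below 0.05. The study states 4 mice per genotype but the labels do not tie libraries to mice, so the p-values measure the spread between these libraries.

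The depletion was visible in every library, with Hsp90b1 at 2.67 ± 0.63 FPKM in KO Tregs (2.13 in KO 1), against 52.4 ± 7.70 FPKM in WT Tregs. The Treg identity of the sort was also visible, with Foxp3 at 108 FPKM on average in KO Tregs and 98.2 FPKM in WT Tregs, and Cd4 at 184 and 186 FPKM in the same order. In KO 1 Foxp3 was at 55.0 FPKM, below every WT library (83.0 to 106 FPKM). Of 11 Treg and T cell markers tested, 1 passed as lower, Il2ra, and 0 passed as higher. Across all tested genes 6.68% passed as lower. Il2ra averaged 42.9 FPKM in KO Tregs (50.8 in KO 1) and 114 FPKM in WT Tregs (log2 fold change -1.38, adjusted p = 0.00011). Reads assigned to genes, recovered from the FPKM values, numbered 24522263 in KO 1 and 12068195 to 16666471 in the other libraries. KO 1 and WT 1 stood apart from the remaining 7 libraries along the first principal component (59% of the variance), with Malat1, a nuclear RNA, at 30.6 FPKM in KO 1 and 24.9 FPKM in WT 1, against 182 to 374 FPKM elsewhere. Member results are therefore also given with KO 1 and without WT 1.

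The RGS transcripts of KO Tregs changed in opposite directions. Rgs10, Rgs16, Rgs1 and Rgs3 were lower, Rgs2 and Rgs14 were higher, Rgs19 did not pass and Rgs18 was close to absent in both genotypes. Thus 6 of the 7 members above the expression filter passed, 2 of them higher and 4 lower in KO Tregs, where 13.3% of all tested genes passed in either direction, 6.58% higher and 6.68% lower. For the same 6 members the KO and WT libraries did not overlap, which held for 33.1% of all tested genes. They did not overlap with KO 1 included either, but the share of all genes for which this held was not computed. Over all 9 libraries 5 members passed (6.76% of all genes) and without WT 1 the 6 members passed again (36.7% of all genes). Since the RNA is from sorted cells in bulk, fewer cells expressing a gene and less RNA of it per cell cannot be told apart.

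**Figure D1:**
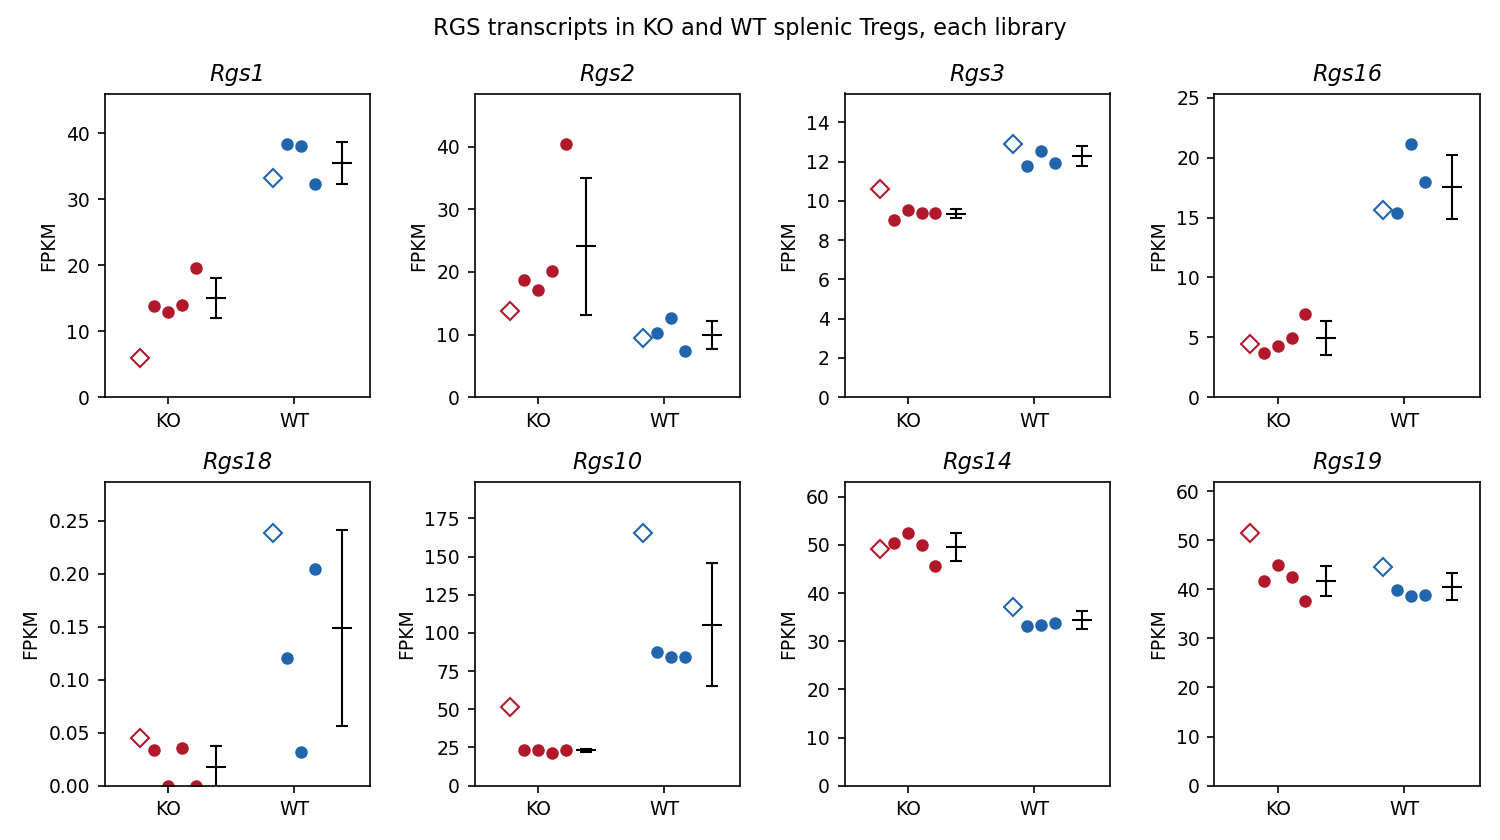
FPKM (vertical axes, each from 0) of the 8 RGS genes in each KO library (red, left) and WT library (blue, right). Open diamonds are KO 1 and WT 1, filled circles the others, and black bars the mean ± SD of KO 2 to KO 5 and of WT 1 to WT 4. The KO and WT libraries separate for Rgs1, Rgs2, Rgs3, Rgs16, Rgs10 and Rgs14 and overlap for Rgs19 and Rgs18.

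Rgs10, a small RGS protein that acts on Gi alpha subunits and is abundant in immune cells, showed the largest fall among the members. Its levels were 23.5, 23.3, 21.7 and 23.6 FPKM in KO 2 to KO 5 and 51.8 FPKM in KO 1, against 165.7, 87.6, 84.4 and 83.9 FPKM in WT 1 to WT 4. KO 1 and WT 1, the libraries that stood apart, were each far above the rest of their own group, and every KO library still lay below every WT library. The means of 23.0 ± 0.90 FPKM in KO Tregs and 105 ± 40.2 FPKM in WT Tregs differed 4.58-fold, with a log2 fold change of -2.08 (SE 0.21, 95% interval -2.58 to -1.59, adjusted p = 0.00082). Without WT 1 the log2 fold change was -1.85 (adjusted p = 1.5e-06), over all 9 libraries it was -1.86 (adjusted p = 0.0068), and between KO 1 and WT 1 alone it was -1.66.

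Rgs14, the other R12 member, carries besides its RGS domain a GoLoco motif that holds Gi alpha subunits in the GDP-bound state, and Ras-binding domains. It moved the other way, at 50.4, 52.6, 49.9 and 45.6 FPKM in KO 2 to KO 5 and 49.1 FPKM in KO 1, against 37.2, 33.2, 33.5 and 33.7 FPKM in WT 1 to WT 4. The lowest KO library was above the highest WT library. The means were 49.6 ± 2.90 FPKM in KO Tregs and 34.4 ± 1.88 FPKM in WT Tregs, a log2 fold change of 0.52 (SE 0.08, 95% interval 0.34 to 0.69, adjusted p = 0.0045). It was 0.51 over all 9 libraries (adjusted p = 0.0069) and 0.55 without WT 1 (adjusted p = 0.0002). Accordingly, the ratio of Rgs14 to Rgs10 was 1.93 to 2.30 in KO 2 to KO 5 and 0.95 in KO 1, against 0.22 to 0.40 in WT Tregs, so that the more abundant R12 transcript was Rgs14 in KO 2 to KO 5 and Rgs10 in every WT library.

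Rgs16, an R4 member induced when T cells are activated, was lower in KO Tregs. It stood at 3.67, 4.27, 4.98 and 6.93 FPKM in KO 2 to KO 5 and 4.47 FPKM in KO 1, against 15.6, 15.4, 21.1 and 18.0 FPKM in WT 1 to WT 4. The groups were far apart, and KO 1 lay within the range of the other KO libraries. The means of 4.96 ± 1.42 FPKM in KO Tregs and 17.5 ± 2.67 FPKM in WT Tregs gave a log2 fold change of -1.65 (SE 0.17, 95% interval -2.06 to -1.25, adjusted p = 0.00089), -1.67 over all 9 libraries (adjusted p = 0.0005) and -1.70 without WT 1 (adjusted p = 0.00049). The value rested on 127 to 250 reads per KO library and 528 to 770 per WT library. Rgs16 exons overlap those of Gm28513 on the opposite strand. The libraries kept strand, but no source used here says whether the counting used it.

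Rgs1, which restrains lymphocyte chemotaxis, was also lower. Its levels were 13.8, 12.8, 13.9 and 19.6 FPKM in KO 2 to KO 5 and 5.87 FPKM in KO 1, against 33.2, 38.3, 38.1 and 32.2 FPKM in WT 1 to WT 4. KO 1 was the lowest of all, whereas WT 1 lay among the other WT libraries. The log2 fold change was -1.20 (SE 0.14, 95% interval -1.51 to -0.89, adjusted p = 0.0013), with means of 15.0 ± 3.08 FPKM in KO Tregs and 35.5 ± 3.21 FPKM in WT Tregs. It was -1.44 over all 9 libraries (adjusted p = 0.014), -1.23 without WT 1 (adjusted p = 0.00062) and -2.31 between KO 1 and WT 1.

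Rgs2, which favors Gq over Gi, was the R4 member that rose. It reached 18.8, 17.1, 20.1 and 40.4 FPKM in KO 2 to KO 5 and 13.8 FPKM in KO 1, against 9.41, 10.2, 12.7 and 7.41 FPKM in WT 1 to WT 4. KO 5 was far above the other KO libraries, and KO 1 was only just above the highest WT library. The means were 24.1 ± 10.9 FPKM in KO Tregs and 9.92 ± 2.17 FPKM in WT Tregs, a log2 fold change of 1.14 (SE 0.27, 95% interval 0.52 to 1.76, adjusted p = 0.031). This was the weakest call among the 6. Over all 9 libraries the log2 fold change was 1.00 with an adjusted p of 0.075, and the call was also lost when KO 2 (adjusted p = 0.061), KO 4 (0.071), WT 2 (0.069) or WT 4 (0.065) was left out. Without KO 5 it was kept at a log2 fold change of 0.87 (adjusted p = 0.023), and without WT 1 it was kept (adjusted p = 0.024).

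Rgs3, whose longer isoforms carry domains beyond the RGS domain, showed a small and even fall. It was at 9.04, 9.56, 9.40 and 9.39 FPKM in KO 2 to KO 5 and 10.6 FPKM in KO 1, against 12.9, 11.8, 12.5 and 11.9 FPKM in WT 1 to WT 4. The spread within each genotype was narrow. The means were 9.35 ± 0.22 FPKM in KO Tregs and 12.3 ± 0.52 FPKM in WT Tregs, a log2 fold change of -0.36 (SE 0.06, 95% interval -0.50 to -0.22, adjusted p = 0.0083). The adjusted p was 0.033 over all 9 libraries, 0.00076 without WT 1 and 0.0495 with limma-voom on the recovered reads.

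Rgs19, a Gi-directed member abundant in both genotypes, did not pass. It was at 41.6, 44.9, 42.6 and 37.6 FPKM in KO 2 to KO 5 and 51.5 FPKM in KO 1, against 44.5, 39.9, 38.7 and 38.9 FPKM in WT 1 to WT 4. The libraries overlapped. The log2 fold change was 0.04 (SE 0.09, 95% interval -0.16 to 0.24, adjusted p = 0.757), an interval that leaves out changes of the size seen for Rgs14 in the same libraries. It was 0.10 over all 9 libraries (adjusted p = 0.770) and 0.09 without WT 1 (adjusted p = 0.290).

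Rgs18, known for its expression in megakaryocytes and platelets, was below the filter of 1 FPKM in all 9 libraries. KO 2 to KO 5 held 1, 0, 1 and 0 reads and KO 1 held 2, against 7, 4, 1 and 7 reads in WT 1 to WT 4. Summed, these are 2 of 53727387 reads in KO 2 to KO 5 and 19 of 59520750 in WT Tregs, a ratio of 0.117 with an exact 95% interval of 0.0132 to 0.483 that covers counting error only. The exact two-sided permutation test of log2(FPKM + 1) gave p = 0.0857 for 4 against 4 libraries and p = 0.0635 with KO 1. The difference of mean log2(FPKM + 1) was -0.17, and -0.13 without WT 1. For each of the 6 members that passed, the exact permutation test gave p = 0.0286, the smallest that 4 against 4 libraries allow. Any gene whose KO and WT libraries do not overlap gets this value, as did 33.1% of all tested genes, so it restates the lack of overlap.

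**Figure D2:**
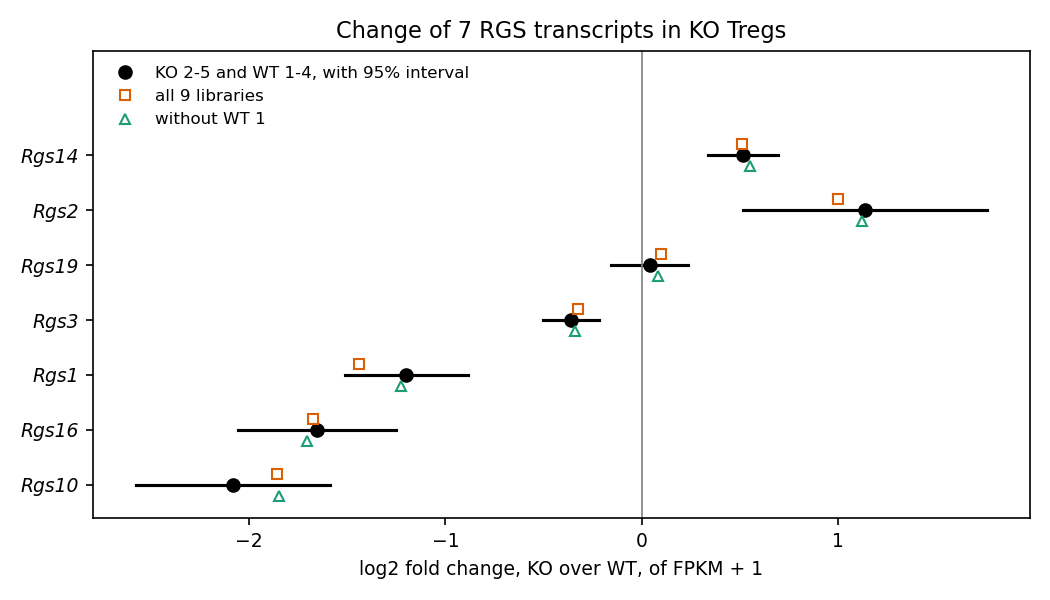
Log2 fold change of FPKM + 1, KO over WT (horizontal axis), of the 7 RGS genes above the filter. Black circles with lines are KO 2 to KO 5 over WT 1 to WT 4 with the 95% interval, orange squares all 9 libraries and green triangles the fit without WT 1. Rgs10 lies farthest to the left at -2.08 and Rgs2 farthest to the right at 1.14, and the interval of Rgs19 alone crosses 0.

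The comparison of KO 1 with WT 1, which stood apart together, gave the same direction for each of the 6 members. Rgs16 was at 4.47 FPKM in KO 1 and 15.6 FPKM in WT 1, Rgs2 at 13.8 and 9.41 FPKM, Rgs3 at 10.6 and 12.9 FPKM, and Rgs14 at 49.1 and 37.2 FPKM in the same order. There is 1 library of each genotype in this pair, so it carries no test. The pair is no independent support, since WT 1 is also in the fit that called the members. The shared direction follows from the lack of overlap over all 9 libraries. The share of all genes that kept their direction in this pair was not computed.

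The order of the levels differed between the genotypes. In KO 2 to KO 5 the mean FPKM ran from Rgs14 (49.6) over Rgs19 (41.7), Rgs2 (24.1), Rgs10 (23.0), Rgs1 (15.0), Rgs3 (9.35) and Rgs16 (4.96) to Rgs18. Among neighbors in that order, Rgs2 overlapped both Rgs19 and Rgs10 between libraries, in each case through KO 5. In WT Tregs the order was Rgs10 (105), Rgs19 (40.5), Rgs1 (35.5), Rgs14 (34.4), Rgs16 (17.5), Rgs3 (12.3), Rgs2 (9.92) and Rgs18. There, Rgs1 overlapped Rgs14, and Rgs3 overlapped Rgs2. Rgs1 and Rgs2 changed places in the order. The ratio of Rgs2 to Rgs1 was 1.36, 1.34, 1.45 and 2.06 in KO 2 to KO 5 and 2.35 in KO 1, against 0.284, 0.266, 0.332 and 0.230 in WT 1 to WT 4. This turn of the order depends on the exon length used: per length of the longest coding transcript the ratio was 0.904, 0.887, 0.96 and 1.37 in KO 2 to KO 5 and 1.56 in KO 1, against 0.153 to 0.22 in WT Tregs. Rgs14 over Rgs10 was then 1.79 to 2.13 in KO 2 to KO 5 and 0.876 in KO 1, against 0.208 to 0.372 in WT Tregs.

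The summed FPKM of the 8 members was 161 to 183 in KO 2 to KO 5 and 187 in KO 1, against 226 to 319 in WT Tregs. Rgs10 made up 12.9 to 14.6% of that sum in KO 2 to KO 5 and 27.7% in KO 1, against 35.0 to 52.0% in WT Tregs. The share of Rgs14 was 24.9 to 31.9% in KO 2 to KO 5, against 11.7 to 14.9% in WT Tregs. These sums depend on the gene lengths by which FPKM divides. The annotated exons of Rgs1, for instance, merge to 6947 bases because retained introns fill its whole span, while its longest coding transcript has 3841 bases. Per length of the longest coding transcript, Rgs1 would average 27.2 FPKM in KO Tregs and 64.1 FPKM in WT Tregs, the second highest member in WT Tregs, and Rgs10 44.8 and 205 FPKM in the same order. The comparison between genotypes of any single gene is not touched by this.

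**Figure D3:**
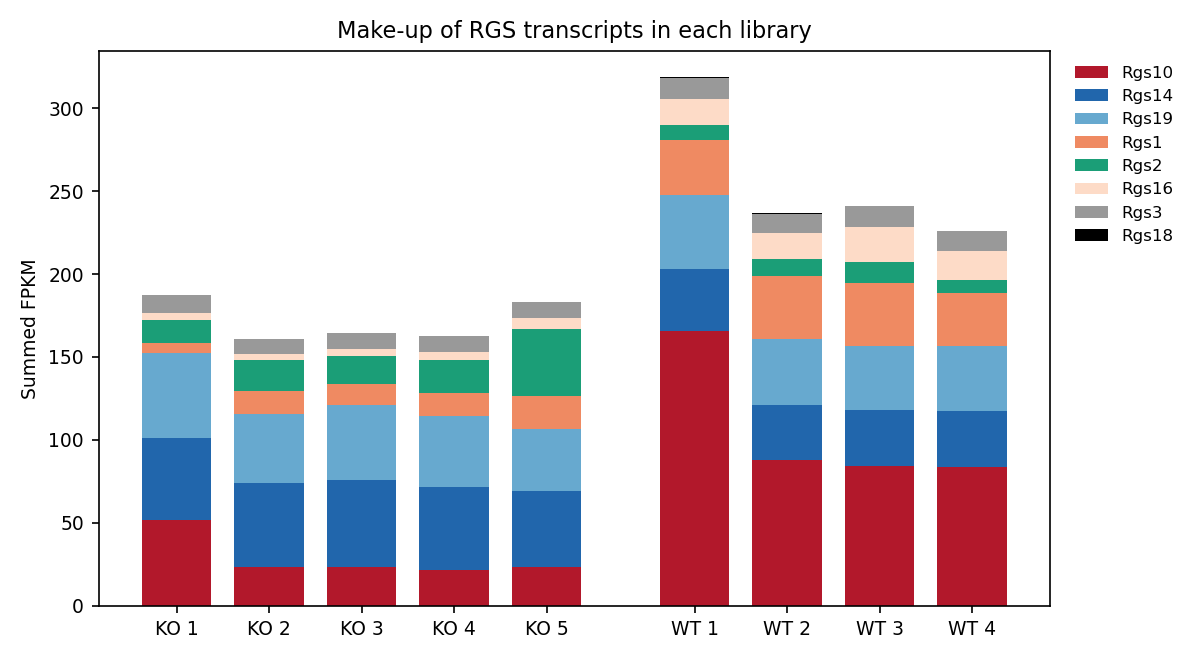
Summed FPKM of the 8 RGS genes (vertical axis, from 0) in each KO library (left) and WT library (right), stacked by gene. Rgs10 (dark red) makes up 35.0 to 52.0% of the bar in WT libraries and 12.9 to 27.7% in KO libraries, and Rgs2 (green) is widest in KO 5.

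Rgs2 and Rgs1 lie near each other on mouse chromosome 1 and moved in opposite directions. In GRCm38, Rgs2 lies at chr1:143999338-144004161 and Rgs1 at chr1:144242296-144249242, both on the minus strand, in a run of RGS genes that ends with Rgs18 at chr1:144752683-144775435 and spans 776 kb. Rgs13, between Rgs2 and Rgs1, and Rgs21, between Rgs1 and Rgs18, had no entry under these symbols in the expression table. The genes on the other side of Rgs2 did not pass. These were Cdc73 (adjusted p = 0.79), Glrx2 (0.51), Trove2 (0.17) and Uchl5 (0.28). Rgs16 lies farther along the same chromosome at chr1:153740349-153745468 on the plus strand, between Rgs8 and Rgsl1, both of which averaged below 0.05 FPKM in each genotype. Around it Dhx9 (adjusted p = 0.913) and Glul (0.936) did not pass. The remaining members lie on other chromosomes, Rgs3 at chr4:62559847-62704001, Rgs10 at chr7:128373621-128418758, Rgs14 at chr13:55369732-55384687 and Rgs19 at chr2:181688419-181693977.

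Sequences from the 5′ end of the members with the largest fall, Rgs10 and Rgs16, and of the member with the largest rise, Rgs2, are shown because they are the stretches in which the basal promoter elements of these 3 genes can be read. They are the 250 bases before the RefSeq start in GRCm38.p6, 5′ to 3′ on the strand of the gene, and 5 of the 8 members had an entry. The RefSeq start of Rgs10 is not the outermost one of the gene span given above, which begins 336 bases upstream of the window, so that its window lies within that span. Capitals mark matches on either strand to the GC box GGGCGG (or CCGCCC), the CCAAT box CCAAT (or ATTGG), the core TGACG of the cyclic AMP response element (or CGTCA on the other strand), the TATA box TATAAA (or TTTATA) and the STAT motif TTCNNNGAA. The windows are chr7:128418173-128418422 (minus strand) for Rgs10, chr1:153740103-153740352 (plus strand) for Rgs16 and chr1:144004150-144004399 (minus strand) for Rgs2.
Rgs10: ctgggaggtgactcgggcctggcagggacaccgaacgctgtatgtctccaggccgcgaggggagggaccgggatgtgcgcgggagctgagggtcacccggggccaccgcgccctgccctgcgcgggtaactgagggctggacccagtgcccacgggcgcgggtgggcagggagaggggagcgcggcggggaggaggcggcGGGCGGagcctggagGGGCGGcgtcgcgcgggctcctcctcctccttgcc
Rgs16: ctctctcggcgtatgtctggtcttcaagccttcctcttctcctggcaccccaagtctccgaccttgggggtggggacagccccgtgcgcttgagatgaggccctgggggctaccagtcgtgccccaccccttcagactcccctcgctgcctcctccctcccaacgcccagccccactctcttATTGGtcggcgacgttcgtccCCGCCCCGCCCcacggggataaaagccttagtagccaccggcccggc
Rgs2: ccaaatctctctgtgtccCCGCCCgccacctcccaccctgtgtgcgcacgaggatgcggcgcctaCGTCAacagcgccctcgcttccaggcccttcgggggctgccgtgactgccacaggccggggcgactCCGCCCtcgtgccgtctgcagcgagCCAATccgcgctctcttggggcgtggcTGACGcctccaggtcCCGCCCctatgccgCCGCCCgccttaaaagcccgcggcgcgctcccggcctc

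All 3 windows are rich in G and C, at 76.4% for Rgs10, 66.4% for Rgs16 and 72.4% for Rgs2, against a median of 52.4% over 32851 promoters. They hold 27, 17 and 30 CpG in the same order, against a median of 6. GC boxes occur in each, 2 in Rgs10, 2 overlapping ones in Rgs16 and 4 in Rgs2, and 32.7% of all promoters hold at least 1. A CCAAT box is present at -68 in Rgs16 and at -94 in Rgs2, as in 33.8% of all promoters. The TGACG core is found in Rgs2 alone among the 3, at -185 and -67, and in 17.8% of all promoters. TATAAA (12.4% of all promoters) and TTCNNNGAA (7.02%) are not in these 3 windows. The matches describe the letters only.

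The remaining RGS genes added little to the RGS transcripts of these Tregs. There were 6 further RGS genes with an entry, of which 2 were above the filter and 0 passed by limma (1 had an unadjusted p below 0.05, and 0 passed with limma-voom). Rgs9, an R7 member best known from photoreceptors and striatum, was at 1.89, 1.77, 1.70 and 2.09 FPKM in KO 2 to KO 5 and 0.65 FPKM in KO 1, against 1.84, 4.41, 5.37 and 5.26 FPKM in WT 1 to WT 4. WT 1 lay among the KO libraries, and the log2 fold change of -0.80 had an adjusted p of 0.071, which became -1.07 and 0.00014 without WT 1 and -0.96 and 0.082 over all 9 libraries. Rgs11 averaged 1.14 FPKM in KO Tregs and 1.11 FPKM in WT Tregs (log2 fold change 0.10, adjusted p = 0.816) and its direction turned without WT 1 (-0.21). The RGS-like domain also occurs in axins, sorting nexins, GPCR kinases and some guanine nucleotide exchange factors, and there 3 of 13 tested genes passed, all 3 higher. This count and those that follow are to be read against the 6.58% of all genes that passed as higher and the 6.68% that passed as lower. Axin2, a scaffold of the beta-catenin destruction complex and itself a target of Wnt signaling, averaged 28.7 ± 1.46 FPKM in KO Tregs and 9.67 ± 0.07 FPKM in WT Tregs (log2 fold change 1.48). Snx13, a sorting nexin, rose by 0.99 and Arhgef11, an exchange factor driven by G12/13, by 0.38 on the log2 scale, of which Arhgef11 did not pass over all 9 libraries (adjusted p = 0.115). The list's median log2 fold change was 0.09, against 0.01 for all genes.

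Among the G proteins that RGS proteins act on, the Gi alpha subunits Gnai2 and Gnai3 were the most abundant and did not pass. Gnai2 averaged 168 FPKM in KO Tregs and 193 FPKM in WT Tregs (adjusted p = 0.692) and Gnai3 56.2 and 66.0 FPKM in the same order (adjusted p = 0.646). WT 1 was high for both, with Gnai2 at 302 FPKM and 150 to 161 FPKM in WT 2 to WT 4, and both directions turned without WT 1 (log2 fold changes 0.10 and 0.09) and over all 9 libraries (0.09 for each). With a term for KO 1 and WT 1, Gnai2 passed as higher (0.14, adjusted p = 0.024). Of 9 alpha subunit genes tested, 3 rose and 0 fell, with a median of 0.15. Gna15, a Gq-class subunit of blood cells, averaged 29.7 ± 1.99 FPKM in KO Tregs and 9.98 ± 1.24 FPKM in WT Tregs (log2 fold change 1.49, adjusted p = 0.00011). Gna11, also of the Gq class, rose by 0.62 and Gna13, a subunit of the G12/13 class, by 0.38 on the log2 scale. Over all 9 libraries Gna13 did not pass (adjusted p = 0.057).

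Of 7 beta and gamma subunit genes tested, 3 gamma genes were lower, 0 genes were higher and 4 did not pass (median -0.37). The 3 passed again over all 9 libraries and without WT 1, where the beta subunits Gnb1 (log2 fold change 0.17) and Gnb2 (0.27), the most abundant of the list, passed as higher. Gngt2 fell to 2.32 FPKM in KO Tregs, against 6.08 FPKM in WT Tregs, Gng2 to 8.43 FPKM, against 16.7 FPKM, and Gng12 to 1.33 FPKM, against 2.62 FPKM. The regulators with a GoLoco motif or of the RIC8 type had 1 of 5 tested genes higher, Ric8a, an exchange factor and folding aid for alpha subunits (log2 fold change 0.41). Of 11 effectors tested, 3 rose and 1 fell (median 0.38). Pik3r5, the p101 subunit through which beta-gamma dimers activate PI3K gamma, averaged 50.1 ± 1.28 FPKM in KO Tregs and 19.97 ± 0.79 FPKM in WT Tregs (log2 fold change 1.28, adjusted p = 3.6e-05). Dock2, the Rac exchange factor of lymphocyte migration, rose by 0.57 and Plcb3, a phospholipase C driven by Gq and beta-gamma, by 0.82 on the log2 scale, the last with an adjusted p of 0.041 that became 0.235 over all 9 libraries. Adcy6, an adenylyl cyclase that Gi inhibits, fell to 1.49 FPKM in KO Tregs, against 4.30 FPKM in WT Tregs. Neither beta-arrestin gene passed.

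Receptors that signal through these proteins changed in both directions. Of 17 chemoattractant and lipid receptors tested, 6 rose and 4 fell, among them Ccr2 (log2 fold change 1.87), Ccr10 (1.47) and Ccr8 (-1.81), with 6 rising and 1 falling over all 9 libraries. In a list of mostly Gs-coupled receptors, 0 of 8 tested genes rose and 2 fell, Ptgir (-0.56) and Ptger4 (-0.35). Over all 9 libraries neither of these had a call.

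**Figure D4:**
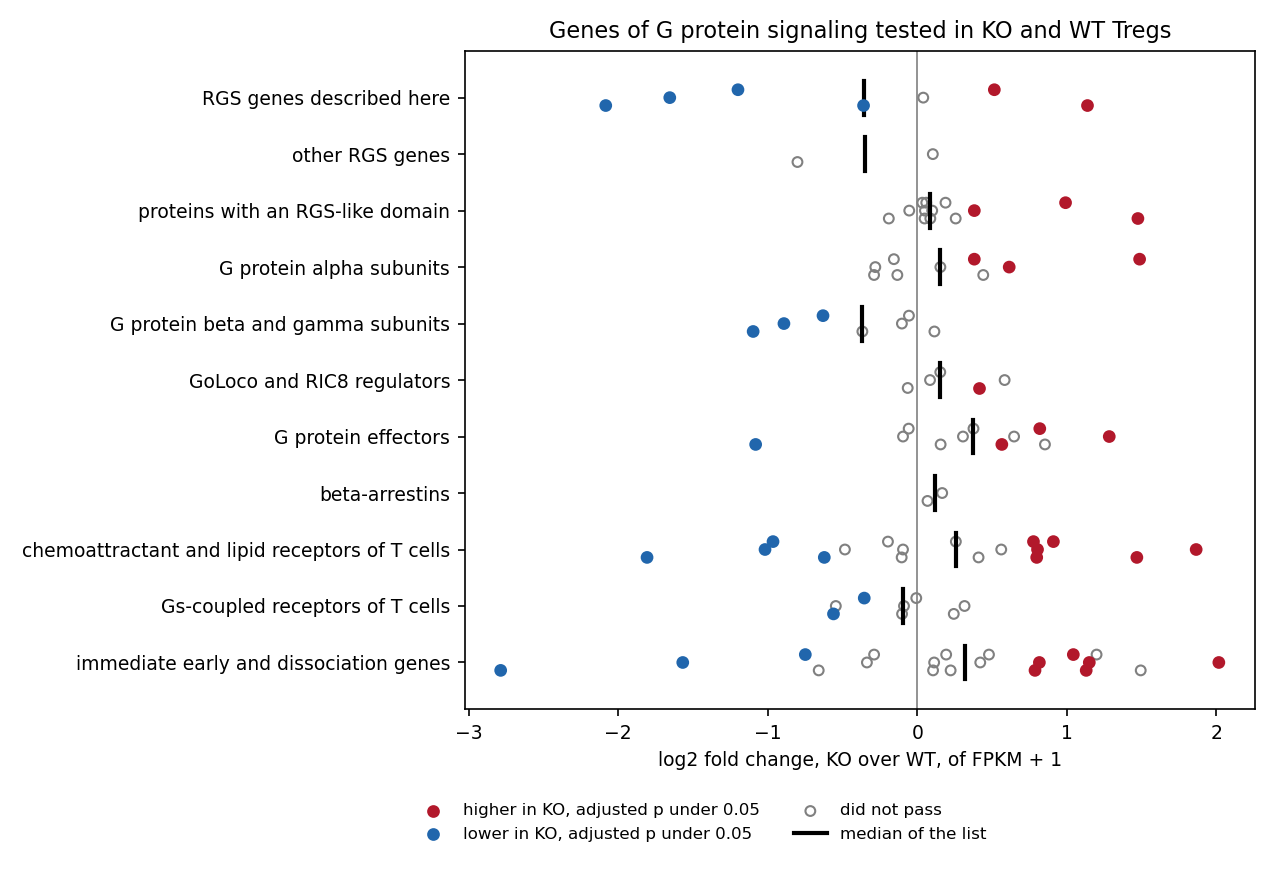
Log2 fold change of FPKM + 1, KO over WT (horizontal axis), of each tested gene in the RGS group and in the lists of G protein signaling and immediate early genes (rows). Red and blue points passed as higher and lower in KO, grey open points did not, and black bars are list medians. The 3 passing alpha subunits lie to the right and the 3 passing gamma subunits to the left of 0.

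Markers of other blood cells also differed between the genotypes. The summed level of 15 B cell markers was 39.7 to 50.2 FPKM in KO 2 to KO 5 and 82.6 FPKM in KO 1, against 85.6 to 119 FPKM in WT Tregs, with 4 of 6 tested markers lower. Most of this was Cd74, at 27.7 FPKM on average in KO Tregs and 63.4 FPKM in WT Tregs. The sum of 15 myeloid markers was 35.2 to 52.9 FPKM in KO 2 to KO 5 and 136 FPKM in KO 1, against 87.3 to 94.4 FPKM in WT Tregs, with 0 of 6 tested markers passing by limma (5 lower at an unadjusted p below 0.05, and 0 passing with limma-voom) and 6 of 7 lower without WT 1. Plasma cell markers (9 genes) summed to 228 to 345 FPKM in KO 2 to KO 5 and 447 FPKM in KO 1, against 456 to 1004 FPKM in WT Tregs, with 3 of 7 tested markers lower and 1 higher, and Ighg1 averaged 0.04 FPKM in KO Tregs and 9.58 FPKM in WT Tregs. The 10 CD8 T and NK cell markers summed to 21.7 to 29.5 FPKM in KO 2 to KO 5 and 61.9 FPKM in KO 1, against 34.8 to 54.4 FPKM in WT Tregs, with 1 of 4 tested markers, Nkg7, lower. The part of such cells in the RGS levels was not tested. Platelet markers summed to 44.1 to 46.8 FPKM in KO 2 to KO 5 and 51.5 FPKM in KO 1. The sum was 16.6 to 20.6 FPKM in WT Tregs. Nearly all of it was Itgb3. Of 2 tested platelet markers, 2 passed as higher, Itgb3 and Gp1ba, and 1 passed over all 9 libraries. Pf4, below the filter, averaged 0.23 FPKM in KO Tregs and 0.28 FPKM in WT Tregs.

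Genes that respond within minutes to activation or tissue dissociation were high in the library with the highest Rgs2. The summed level of 22 such genes was 1608, 1678, 1716 and 2735 FPKM in KO 2 to KO 5 and 1764 FPKM in KO 1, against 1640, 1164, 1314 and 925 FPKM in WT 1 to WT 4. KO 5 was the highest of the 9 libraries for this sum and for Rgs2, and the highest KO library for Rgs1 and Rgs16. Of 20 such genes tested 6 rose, including Junb, and 3 fell, namely Egr2, Egr3 and Hspa1b (median 0.32). Their part in the change of Rgs2 was not tested.

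Among the 12236 other genes, the profile most like that of each member over the 9 libraries was sought by the root mean square (RMS) difference of centered log2 values. For Rgs2 these were Pgam2, a phosphoglycerate mutase (RMS 0.19), and Junb, an AP-1 subunit (0.22). For Rgs16 they were Dusp4, a MAP kinase phosphatase induced by activation (0.15), and Tbc1d4 (0.23), and for Rgs10 Tnfrsf9, the costimulatory receptor 4-1BB (0.16), and Chchd10 (0.16). Tnfrsf9 averaged 12.6 ± 1.15 FPKM in KO Tregs and 50.9 ± 14.2 FPKM in WT Tregs. The nearest to Rgs1 were the muscle-type enolase Eno3 (0.28) and Lrrc32 (0.28), which encodes the latent TGF-beta receptor GARP, a known client of gp96. Of the members with small changes, Rgs3 had Kptn and Dapp1 nearest (both 0.05) and Rgs14 had Ankrd54 and Slc2a8 (both 0.06). The difference was not scaled to each member's own variation, so its size cannot be compared between members. The likeness rests on 9 libraries that share genotype and the offset of KO 1 and WT 1.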

How the data were processed

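RNA from sorted GFP+ splenic Tregs was sequenced as paired-end, strand-specific libraries. The submitters' processing notes name CASAVA, fastp and the build mm10; no source used here names the aligner or counter behind the table. The authors deposited FPKM per gene, and these FPKM values were used as deposited. Multiplying FPKM by union exon lengths of GENCODE M21 and 1 constant per library recovered whole reads (within 0.01 read) for 24387 of 25500 entries (95.6%), which gave the depths stated; FPKM values remain limited by these counts. No pair of libraries held identical values.

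The test fixed for counts was not used, because the table holds FPKM. Tests were restricted to genes over 1 FPKM in 4 or more of these 8 libraries and run on log2(FPKM + 1) with limma 3.58.1 (trend) in R 4.3.3, KO 2 to KO 5 against WT 1 to WT 4, with Benjamini-Hochberg adjustment over all genes tested and a threshold of 0.05. Single values were also tested by exact two-sided permutation. The fit was tested on simulated data. Alternatives were all 9 libraries, a term for KO 1 and WT 1, a replicate block, other scaling, filters and pseudocounts (0.1 and 0.01), limma-voom on recovered reads, and leaving out each library. Promoters came from RefSeq, GRCm38.p6.

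The members and gene lists were chosen with earlier results of these data known. Named were all members, Hsp90b1, in each list the 3 genes with the smallest p (for markers also the most abundant), the 2 most similar genes per passing member, and neighbors in the chromosome 1 clusters. Gnai2, Gnai3, Gnb1, Gnb2, Plcb3, Foxp3, Cd4, Pf4 and Malat1 were named after their values were seen.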

Additional observations from a re-analysis of the deposited data

Results flagged for a closer look

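In 4 of 16 groups tested (each member in the 5 KO and in the 4 WT libraries), 1 library lay far from the others by Dixon's ratio of its gap to the whole range at the 95% level, which chance gives in about 1 in 20 groups. Rgs2 was at 40.4 FPKM in KO 5 (ratio 0.761). Rgs10 was at 51.8 FPKM in KO 1 (ratio 0.936) and at 165.7 FPKM in WT 1 (ratio 0.955). Rgs14 was at 37.2 FPKM in WT 1 (ratio 0.876). KO 1 and WT 1 were the libraries that stood apart across all genes, and KO 5 had the highest summed level of immediate early genes.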

How the results depend on the processing

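Rgs1, Rgs3, Rgs16, Rgs10 and Rgs14 kept their direction and passed, and Rgs19 did not pass, under all 18 alternatives. The log2 fold change of Rgs10 ranged from -2.17 to -1.80, of Rgs16 from -1.85 to -1.55, of Rgs1 from -1.47 to -1.13, of Rgs3 from -0.39 to -0.30 and of Rgs14 from 0.49 to 0.62. Rgs2 kept its direction under all 18 and its call under 12. The call was lost over all 9 libraries (1.00, adjusted p = 0.075), without the expression filter (1.14, adjusted p = 0.053) and in 4 of the 8 fits that left out 1 library, whose log2 fold changes ranged from 0.87 to 1.27 over all 8. Rgs11 turned negative over all 9 libraries (-0.11), with a term for KO 1 and WT 1 (-0.17), with the replicate block (-0.17) and without WT 1 (-0.21). It ranged from -0.21 to 0.24 over the fits that left out 1 library. Smaller pseudocounts gave 0.54 and 0.90, and limma-voom gave 1.14, the highest of its 17 alternatives. Rgs11 was at 0 FPKM in KO 1 and 0.03 FPKM in WT 1, against 0.96 to 1.62 FPKM elsewhere.

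Of all genes, 805 were higher and 817 lower in KO Tregs. These counts were 395 and 437 over all 9 libraries, 2377 and 2094 with a term for KO 1 and WT 1, 528 and 471 with a filter of 5 FPKM, and 171 and 194 beyond a log2 fold change of 1. Leaving out 1 library gave 384 to 2403 higher and 417 to 2217 lower genes, the most without WT 1. The cause was not tested. KO 1 and WT 1 stood apart together. For the libraries numbered 2, 3 and 4, deviations from the group means correlated at 0.05, -0.11 and 0.00 between same-numbered KO and WT libraries. The WT mean includes WT 1, whose offset enters each of these WT deviations. The correlations therefore cannot decide whether the numbers mark pairs. The replicate block, by library number, gave 1891 higher and 1777 lower genes and changed the call of no member. WT 1 and KO 5 were each alone in a block, so the fold changes of that fit rest on KO 2 to KO 4 and WT 2 to WT 4. With limma-voom the median of all genes was at 0.11 on the log2 scale. Depth limits Rgs18 most, with at most 7 reads in a library.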
